A study of Mus musculus with 13 samples.

Results

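The cytosolic ribosomal protein genes encode the proteins of the ribosome that translates nuclear messages. They were chosen by symbol, as all genes named Rpl or Rps with a number, plus Rplp0, Rplp1, Rplp2 and Rpsa. This rule uses no expression value, but it was set with earlier results of these data known. In all, 59 such genes were measured of 19938 genes tested, 37 of the large subunit and 22 of the small subunit, each through its brightest transcript cluster, the set of probes that the array assigns to a gene. A further 17 symbols, Rpl3, Rpl11 and Rps27 among them, lay only in clusters that carry several gene symbols and 9 had neither kind of cluster. These genes were not analysed singly. Clusters with several symbols entered only the alternative that tested all clusters.

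Primary mouse embryonic fibroblasts, purchased cells grown at 37°C in medium with serum to a subconfluent layer, were either cooled to 32°C (hypothermia) by lowering the incubator temperature or kept at 37°C (normothermia). Each of the 13 Affymetrix mouse gene arrays measured the pooled RNA of 3 dishes, with 6 arrays at 32°C and 6 at 37°C paired by time at 0.5, 1, 2, 4, 8 and 18 h. A single array at 0 h, labelled normothermia, started both series, so any change from 0 h rests on that array. No array was repeated, and error is therefore the spread between pairs or around a line over time. In limma the variance of each gene is drawn toward that of all genes. A gene steadier than most thus has a larger SE than its own SD implies. The median intensity of the arrays lay between 145.0 and 149.8. Fibroblast markers had mean log2 intensities of 9.42 or more in 10 of 10 genes, whereas 0 of 4 endothelium and 0 of 4 neural markers, 0 of 3 erythroid, 1 of 5 macrophage, 1 of 4 epithelium and 1 of 4 skeletal muscle markers exceeded the median of all genes. The cold-induced RNA-binding protein Cirbp, which checks the temperature labels, rose by 0.34 per time step at 32°C (SE 0.020, adjusted p = 3.1e-04 from limma). The other such protein, Rbm3, had a slope of 0.024 (SE 0.015, adjusted p = 0.44) and did not pass. The mean log2 intensity was 13.16 for Rbm3 and 9.06 for Cirbp.

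Ribosomal proteins assemble with ribosomal RNA in the nucleolus into a small subunit, which decodes the message, and a large subunit, which joins amino acids. Their genes belong to the most highly transcribed of growing cells, and most of their messages begin with a tract of pyrimidines (C and U) at the 5′ end, the TOP sequence, through which the kinase mTOR and the RNA-binding protein Larp1 control translation. Control through this tract acts mainly on the entry of messages into polysomes, whereas the arrays measured the amount of RNA and not its translation.

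The start sites of several members are shown as examples because the pyrimidine tract is the sequence feature described for most messages of the family. Not every member holds a long run at its annotated start. Whether that start is the one used in these cells was not tested. The windows span 15 bases before to 15 after the start of the gene in RefSeq (build GRCm38.p6), read 5′ to 3′ on the strand of the gene, and capitals mark the longest run of C and T.
Rps6: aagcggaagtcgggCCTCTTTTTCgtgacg
Rps18: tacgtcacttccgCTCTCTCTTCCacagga
Rplp2: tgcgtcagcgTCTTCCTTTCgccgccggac
Rpl28: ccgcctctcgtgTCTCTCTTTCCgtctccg
Rpl12: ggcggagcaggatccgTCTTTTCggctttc
Rps21: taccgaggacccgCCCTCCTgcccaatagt
Rpl27: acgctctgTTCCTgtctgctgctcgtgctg
Rps4x: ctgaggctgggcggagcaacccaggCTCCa
Rpl10l: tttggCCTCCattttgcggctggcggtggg
These windows lie at chr4:86857353-86857382 (Rps6, minus strand), chr17:33955651-33955680 (Rps18, minus), chr7:141447636-141447665 (Rplp2, plus), chr7:4792950-4792979 (Rpl28, plus) and chr2:32961697-32961726 (Rpl12, plus). Those of Rps21, Rpl27, Rps4x and Rpl10l lie at chr2:180257364-180257393 (plus), chr11:101442230-101442259 (plus), chrX:102189377-102189406 (minus) and chr12:66284387-66284416 (minus). The first 5 of these genes hold a run of 7 to 11 pyrimidines that reaches or follows the start, and Rps21 has a run of 7 around the start. Rpl27, Rps4x and the paralog Rpl10l, which has its main expression in testis, hold runs of 4 or 5.

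Of the 59 members, 47 had a promoter entry, and the first listed start was used where a gene had several. A run of at least 7 pyrimidines within the 30 bases was present in 22 of the 47 (46.8%), against 18.5% of all 27025 genes with an entry and 11 of 68 mitochondrial ribosomal proteins (16.2%). A start base C followed by pyrimidines to a length of at least 5 was found in 10 members (21.3%) and in 2.49% of all entries. The letters CCGGAAG or, on the other strand, CTTCCGG, a motif bound by ETS factors such as Gabpa, stood somewhere in the 300 bases around the start in 17 members (36.2%), in 9.12% of all entries and in 35.3% of the mitochondrial proteins. The median temperature difference described below was 0.027 on the log2 scale in the 22 members with a run and 0.034 in the 25 without, a description with no test.

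The signals of the family were high and varied little between arrays. The highest mean log2 intensity of a member was 13.48, and the highest linear intensity of an array lay between 17170 and 18146. Whether signals this high rise less than the RNA does was not tested, so a small spread need not mean that small changes could be seen. The mean log2 intensity of 45 of the 59 clusters lay in the highest 10% of all 28853 transcript clusters. This describes signal and not amounts of RNA compared between genes. The SD of a member over the 13 arrays had a median of 0.047 on the log2 scale, against 0.10 over all genes, and the median member ranged 1.11-fold from its lowest to its highest array. Members varied more where the signal was dimmer. The 36 members above a mean log2 intensity of 12 had a median SD of 0.035, the 11 between 10 and 12 had 0.062, and the 12 below 10 had 0.10. Between pairs of members the correlation over the 13 arrays had a median of 0.33 (1711 pairs of genes), with 0.30 for the large and 0.39 for the small subunit and 0.30 for 77 mitochondrial ribosomal proteins. These correlations share arrays, normalization and, for related genes, possible cross-hybridization, and are given as a description.

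**Figure D1:**
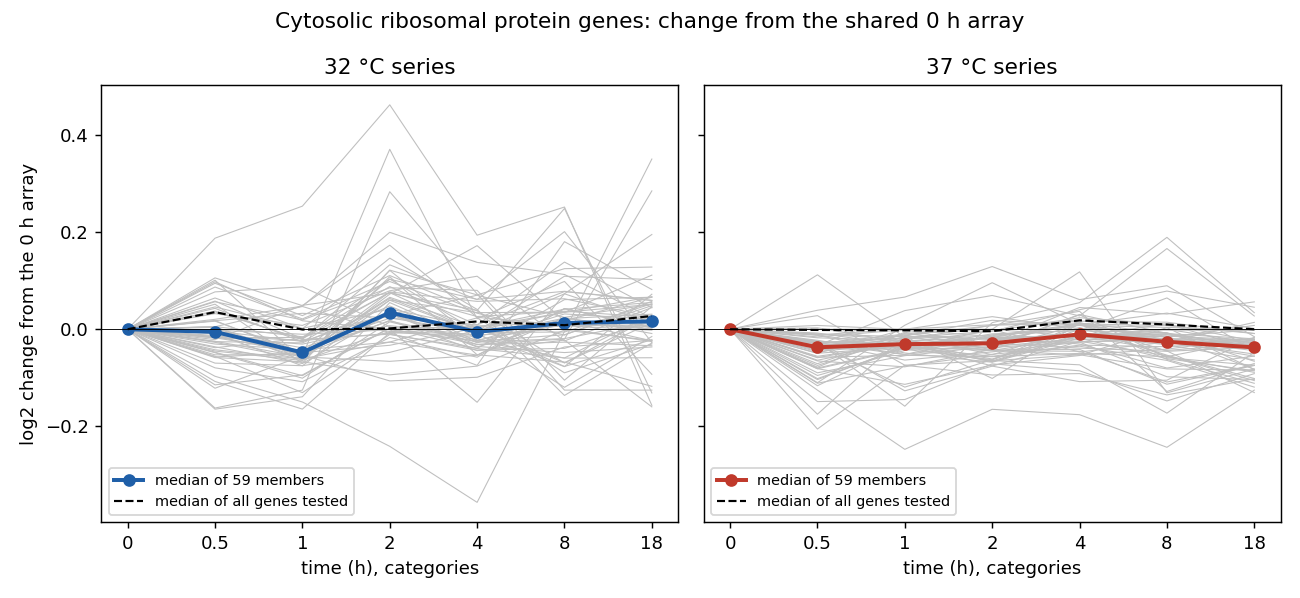
Log2 change from the shared 0 h array (vertical axis) of the 59 cytosolic ribosomal protein genes (grey lines, 1 per gene), their median (coloured) and the median of all genes tested (dashed), against time in h (horizontal axis, evenly spaced categories), at 32°C (left) and 37°C (right). At 37°C the median of the members stayed between -0.037 and -0.011, and at 32°C it ran from -0.048 at 1 h to 0.034 at 2 h.

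Over time, no member changed past the threshold at either temperature, a Benjamini-Hochberg adjusted p under 0.05 in limma over all genes. In such bulk RNA a change in the share of a cell type and one in RNA per cell cannot be told apart. At 32°C 0 of 59 members passed (0.0953% of all genes did) and 0 had an unadjusted p under 0.05 (16.5% of all genes did). Their slopes on the order of the 7 time points had a median of 0.0041 log2 units per time step, beside 0.0047 over all genes. Of these slopes 39 of 59 (66.1%) were above 0, against 56.6% over all genes. At 37°C 0 members passed (0% of all genes) and 0 had an unadjusted p under 0.05 (5.8% of all genes). The median slope was -0.0017, beside 0.0022 over all genes, and 19 slopes (32.2%) were above 0, against 55.7% over all genes. The 95% interval of the slope lay within 1.1-fold per time step for 59 of 59 members in both series, with extremes of 0.942- and 1.08-fold at 32°C, and so did that of 95.2% of all genes at 32°C and 98.6% at 37°C. Scaling each array to its median turned the median slope at 32°C to -5.7e-04, with 26 slopes above 0, and the median slope at 37°C was 0.0014 without the 0 h array, with 38 above 0.

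Kendall's tau, a rank measure of steady change with time, was tested in each series. At 32°C the small subunit protein Rps3, which lies at the entry of the message channel, and Rpl32l, a relative of Rpl32, had a tau of 0.714 (exact 2-sided p = 0.0302 each, adjusted p = 0.359). Rpl4 and Rpl6 at 37°C had a tau of -0.714 (exact p = 0.0302, adjusted p = 0.918) and Rpl10a one of -0.667 (exact p = 0.0437, adjusted p = 0.955). Thus 2 members at 32°C and 3 at 37°C had an unadjusted exact p under 0.05, where 9.18% and 3.96% of all genes did, and after adjustment 0 members and 0.0% of all genes passed in either series. No member rose or fell at every step.

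The slopes furthest from 0 had errors of similar size. At 32°C the highest were those of Rpl10l (0.037 per step, SE 0.034), Rpl34 (0.033, SE 0.019) and Rps3 (0.024, SE 0.015), and the lowest those of Rpl22 (-0.015, SE 0.016), Rps9 (-0.015, SE 0.015) and Rpsa (-0.015, SE 0.017), with limma adjusted p between 0.425 and 0.711. Rpl22, which also binds a small RNA of Epstein-Barr virus, and Rpsa, also known as a laminin receptor, had negative slopes at 37°C too (-0.019 and -0.012). At 37°C the highest slopes were those of Rpl10l (0.027), Rpl30 (0.017) and Rpl34 (0.013), and the lowest those of Rpl22, Rpl39l (-0.019) and Rpl8 (-0.015), with adjusted p of 0.892 to 0.908. The slope of Rpl10l at 32°C rested on the 18 h array and was -0.026 without it.

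Relative to the 0 h array, the family stood a little lower at 37°C, and so did the mitochondrial ribosomal proteins. The median change of those 77 genes at 37°C lay between -0.092 and -0.020. Over the genes above the median signal it lay between -0.033 and 0. The median change of the 59 members was -0.037 at 0.5 h, -0.031 at 1 h, -0.029 at 2 h, -0.011 at 4 h, -0.026 at 8 h and -0.037 at 18 h, while the median over all genes lay between -0.0041 and 0.018. In 28 members the 6 arrays at 37°C all lay below the 0 h array, as they did in 12.6% of all genes, and in 0 members did all lie above it (14.3% of all genes). At 32°C 3 members, Rpl27, Rps14 and Rps21, lay above the 0 h array in all 6 arrays (13.9% of all genes) and 1, Rpl21, below it in all 6 (8.3% of all genes). As the 0 h level is 1 array, whether it stood high for these genes was not tested.

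Between temperatures at the same time, most members were slightly higher at 32°C and none passed the test. Averaged over the 6 pairs, 32°C minus 37°C, 49 of 59 members (83.1%) had a positive difference, against 53.6% of all genes. The median of the members was 0.034 on the log2 scale. It was 0.0070 over all genes and -0.0016 over the 9969 genes above the median signal, of which 49.3% were positive. In limma 0 members passed (0.0702% of all genes), and at an unadjusted p under 0.05 7 were higher and 0 lower (13.5% of all genes were called in either direction). These 7 were Rps21, Rps4l, Rps14, Rpl24, Rps3, Rps19 and Rpl39l, with adjusted p from 0.105 to 0.348. The share called, 7 of 59 (11.9%), was near that of all genes. Of the 77 mitochondrial ribosomal proteins 63 had a positive difference, with a median of 0.062. In limma 0 of these 77 passed, and 22 were higher and 0 lower at an unadjusted p under 0.05. With a variance that follows intensity in limma, 16 members (27.1%) had an unadjusted p under 0.05, all higher at 32°C, against 13.9% of all genes, and 0 passed after adjustment. The 95% interval of the mean difference lay within 1.1-fold either way for 33 members and within 1.2-fold for 55, against 20% and 82.8% of all genes, and the widest bounds of any member were 0.821- and 1.25-fold.

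**Figure D2:**
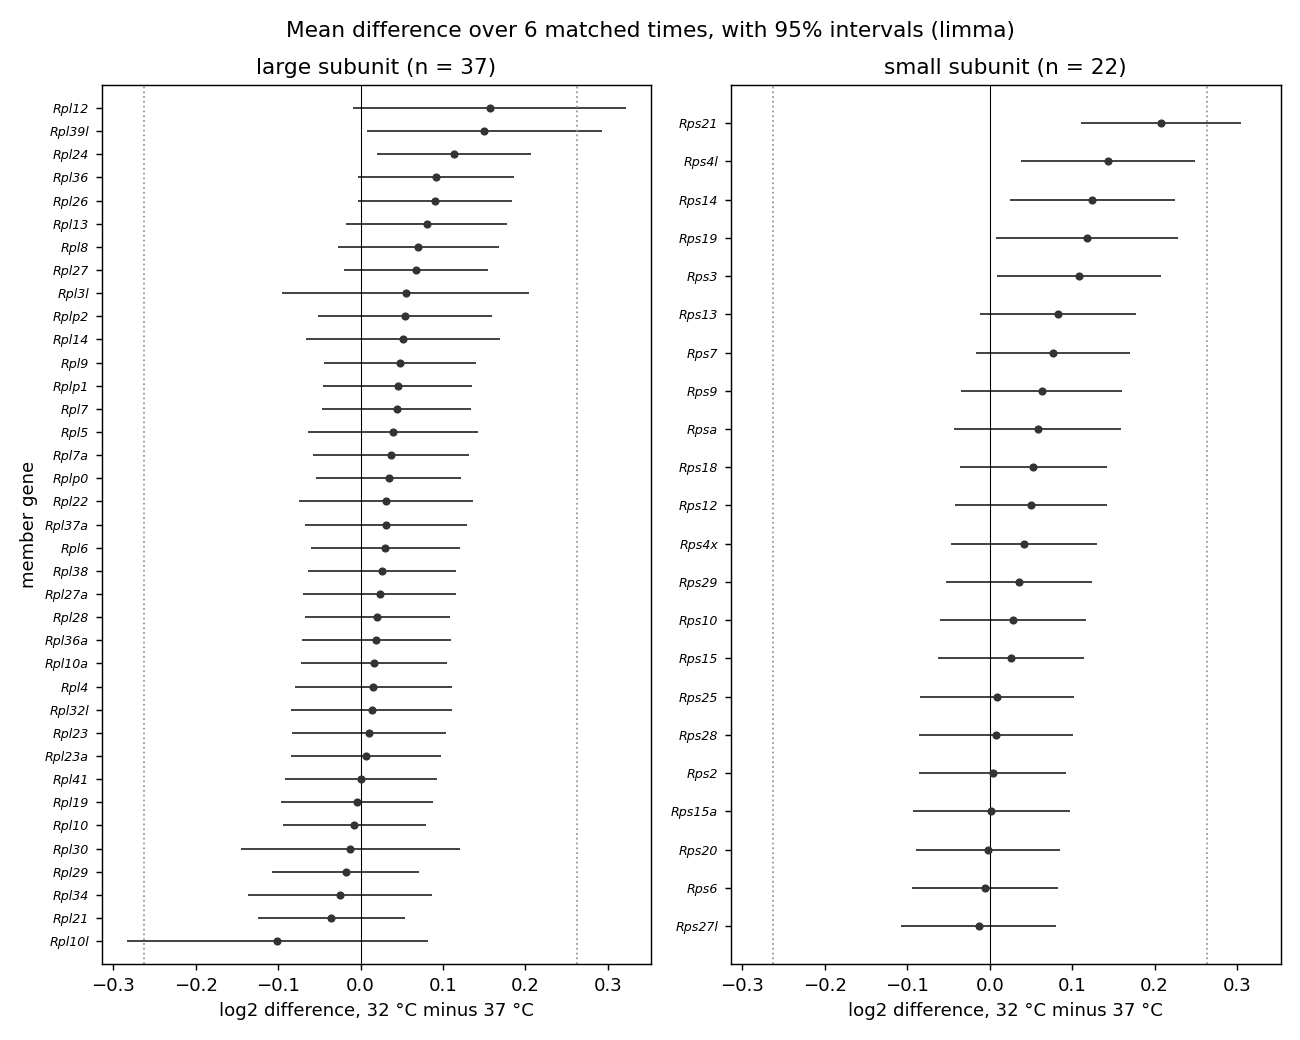
Mean log2 difference, 32°C minus 37°C, over the 6 pairs of matched times (points) with 95% limma intervals (bars) for the 37 large subunit (left) and 22 small subunit genes (right), ordered by the difference, with dotted lines at a 1.2-fold difference either way. Rps21 is highest at 0.21 and Rpl10l lowest at -0.10, and most intervals span 0.

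The shift varied from pair to pair. The median difference of the members was 0.031 at 0.5 h, -0.0064 at 1 h, 0.070 at 2 h, 0.011 at 4 h, 0.034 at 8 h and 0.065 at 18 h. The medians over all genes at these times were 0.029, 0, 0.0064, -0.0010, -0.0016 and 0.021. Over the genes above the median signal they were 0.031, 0.038, 0.032, -0.011, -0.015 and -0.038. At 2 h 49 of 59 members were higher at 32°C (51.7% of all genes) and at 18 h 48 were (54.6% of all genes). At 1 h 26 were higher (49.2% of all genes) and 33 lower. Of the 354 single differences of a member in a pair, 49 exceeded 1.1-fold and 12 exceeded 1.2-fold. In the 3 early pairs (0.5, 1 and 2 h) the median difference was 0.035 with 45 members above 0 (53.5% of all genes). The genes above the median signal had an early median close to that, 0.029, with 62.1% above 0. Without the 2 h pair the median of the members was 0.014 with 39 above 0. In the 3 late pairs (4, 8 and 18 h) the median of the members was 0.034 with 51 above 0 (53.5% of all genes). Without the 18 h pair it was 0.018 with 40. The genes above the median signal had a late median of -0.025, with 43% above 0. In limma 0 members passed early (0% of all genes) or late (2.95% of all genes). At an unadjusted p under 0.05 3 were higher early, Rps21, Rps14 and Rpl12 (7.29% of all genes), and 2 late, Rps21 and Rps4l (18.4% of all genes), and 0 were lower.

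**Figure D3:**
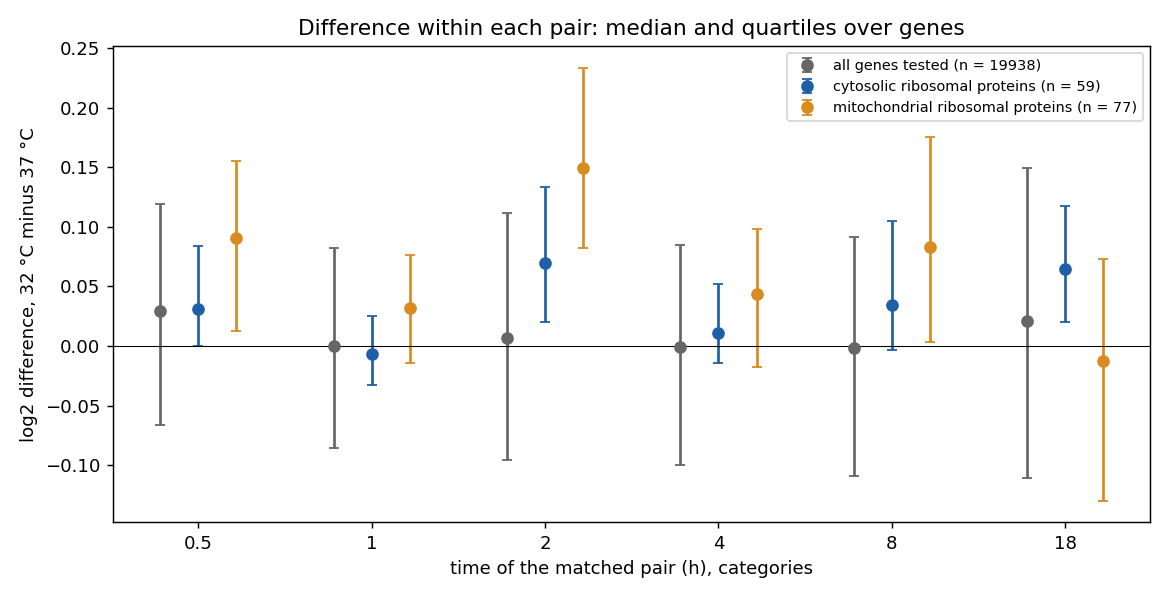
Log2 difference, 32°C minus 37°C, in each pair of arrays (horizontal axis, time in h as evenly spaced categories) as the median (points) and quartiles (bars) over all genes tested, the 59 cytosolic and 77 mitochondrial ribosomal protein genes. The cytosolic median is highest at 2 h (0.070) and lowest at 1 h (-0.0064), and the mitochondrial median is highest at 2 h (0.15) and lowest at 18 h (-0.013).

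As a divergence from the common start, fitted as a line through 0 at 0 h that weights later pairs more, the difference per time step had a median of 0.0084 over the members, beside 0.0020 over all genes, and 52 of 59 were positive. In limma 0 members passed (2.83% of all genes), and 4, Rps21, Rps4l, Rpl24 and Rps3, had an unadjusted p under 0.05 (18.4% of all genes), all upward. With a variance that follows intensity 14 had (23.7%), against 19% of all genes. The divergence takes in a level difference that does not grow. With a separate level term for 32°C the median was 0.0037, beside 0.0016 over all genes, and 36 members were positive. In that fit 0 members had an unadjusted p under 0.05 in limma (13.4% of all genes did). Of the 77 mitochondrial ribosomal proteins 2 passed upward and 54 were positive, with a median of 0.012. The difference between both families was not tested.

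Counts of arrays needed no model. In 10 members the array at 32°C was the higher in 6 of 6 pairs (4.79% of all genes): Rpl9, Rpl24, Rpl26, Rpl27, Rpl36, Rplp0, Rps4l, Rps4x, Rps14 and Rps21. In 0 members was it the lower in all pairs (2.92% of all genes). In 4 members, Rpl27, Rpl36, Rps21 and Rps4x, the 6 arrays at 32°C all lay above the 6 at 37°C (0.863% of all genes), and in 0 did they all lie below (0.451% of all genes). With 1 pair fewer the shares of all genes rose, whichever pair was left out. Without the 0.5 h or the 2 h pair 10 members were still higher in every remaining pair (7.01% and 6.58% of all genes). Under either omission 4 members did not overlap (1.63% and 1.34% of all genes). Without the 1 h pair 19 members were higher in every remaining pair (7.95% of all genes) and 9 did not overlap (2.22% of all genes). Without the 8 h pair the 4 became 7 (1.24% of all genes), and without the 4 h pair 15 were higher in every remaining pair (6.4% of all genes). The members were read on the same arrays, so they are not independent counts.

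**Figure D4:**
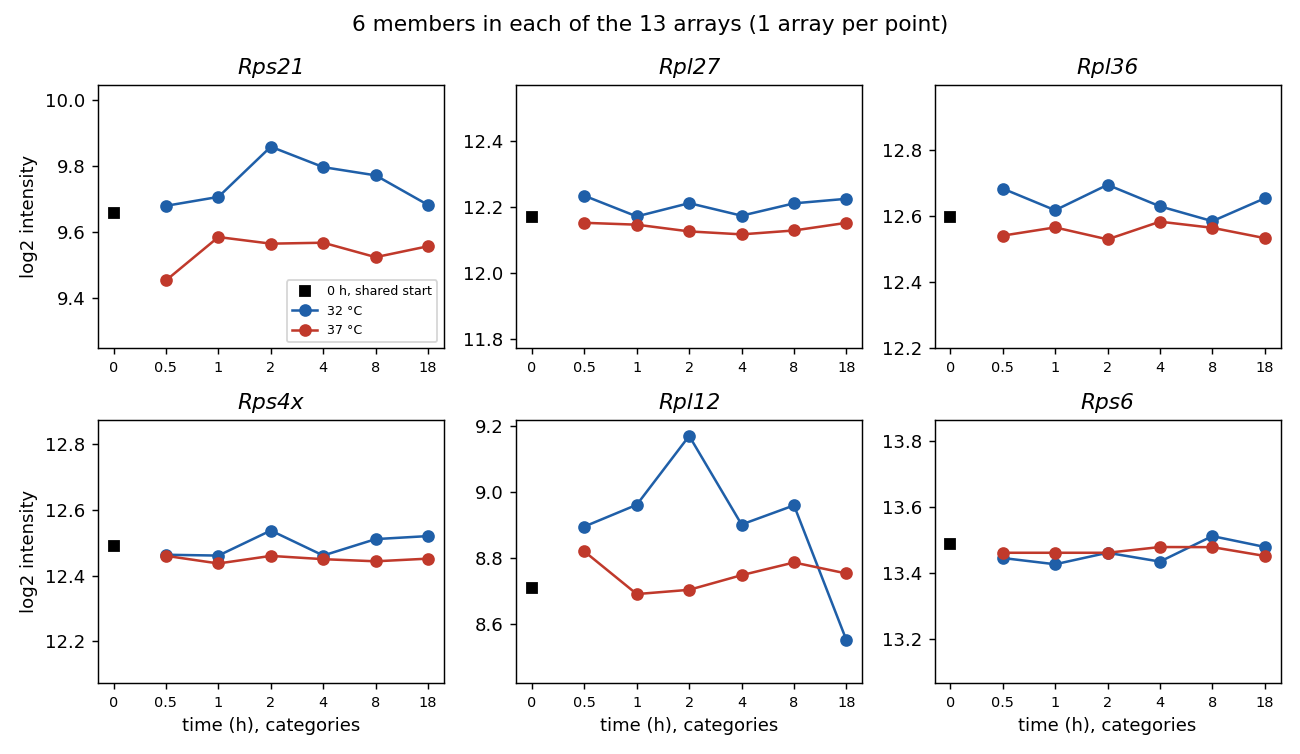
Log2 intensity (vertical axis, 0.8 log2 units in every panel) of Rps21, Rpl27, Rpl36, Rps4x, Rpl12 and Rps6 in each array against time in h (evenly spaced categories), at 32°C (blue) and 37°C (red), with the shared 0 h array as a black square. The red and blue points do not overlap for the first 4 genes, by 0.095 for Rps21 and by 0.0008 for Rps4x, and cross for Rpl12 and Rps6.

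Rps21, whose yeast counterpart is needed to mature the RNA of the small subunit, showed the clearest separation. At 0 h its log2 intensity was 9.66. At 32°C the 6 arrays read 9.68, 9.71, 9.86, 9.80, 9.77 and 9.68 from 0.5 to 18 h, and at 37°C they read 9.45, 9.59, 9.57, 9.57, 9.52 and 9.56. All arrays at 32°C thus lay above 0 h and all later arrays at 37°C below it. The difference in the pairs was 0.23, 0.12, 0.29, 0.23, 0.25 and 0.13, with a mean of 0.21 (SD 0.070, n = 6 pairs), or 1.15-fold with a 95% interval of 1.08 to 1.24 (limma adjusted p = 0.105, unadjusted p = 7.5e-04). Its divergence was 0.047 per time step (SE 0.014, adjusted p = 0.0954). The difference was thus present in the 0.5 h pair and no larger in the 18 h pair, and with a separate level term the divergence was -0.0055 (adjusted p = 0.947).

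Rpl27, a large subunit protein whose gene is mutated in some patients with the inherited anemia of Diamond-Blackfan type, differed less and as regularly. Its log2 intensity was 12.17 at 0 h, 12.17 to 12.23 at 32°C (median 12.21) and 12.12 to 12.15 at 37°C (median 12.14). Arrays at 32°C were above those at 37°C by at least 0.019, and the lowest of them exceeded the 0 h array by 0.0017. The mean difference was 0.068 (SD 0.023, n = 6 pairs), or 1.05-fold, with an interval of 0.986 to 1.11 (limma adjusted p = 0.502). Rpl36, another large subunit protein, read 12.60 at 0 h, 12.58 to 12.69 at 32°C (median 12.64) and 12.53 to 12.58 at 37°C (median 12.55). Its groups were parted by 0.0015, and its mean difference was 0.091 (SD 0.059, n = 6, adjusted p = 0.388). Rps4x, the X-linked form of a small subunit protein, read 12.49 at 0 h, 12.46 to 12.54 at 32°C (median 12.49) and 12.44 to 12.46 at 37°C (median 12.45), with groups parted by 0.0008. Its mean difference was 0.042 (SD 0.033, n = 6, adjusted p = 0.712).

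Among the other small subunit members, Rps14, whose loss in human bone marrow impairs red cell formation, was higher at 32°C by 0.12 (SD 0.080, n = 6 pairs, limma adjusted p = 0.278), and by 0.18 over the early pairs. Its arrays read 12.36 to 12.52 at 32°C and 12.22 to 12.36 at 37°C, overlapping by 0.0020. Rps19, the gene most often mutated in Diamond-Blackfan anemia, had a mean difference of 0.12 (SD 0.11, n = 6, adjusted p = 0.34), with 0.28 at 0.5 h and -0.050 at 1 h. Rps3 had 0.11 (SD 0.077, n = 6, adjusted p = 0.333) and was lower at 32°C only in the 1 h pair. Rps6, the target of the S6 kinases below mTOR, did not separate. Its arrays lay between 13.43 and 13.51 at 32°C and between 13.45 and 13.48 at 37°C, with a mean difference of -0.0057 and a 95% interval of 0.937- to 1.06-fold. Rpsa had a mean difference of 0.059 (SD 0.083, n = 6, adjusted p = 0.639), and Rps9 one of 0.063 (SD 0.070, n = 6, adjusted p = 0.583).

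The stalk of the large subunit, formed by Rplp0, Rplp1 and Rplp2, binds the factors that drive translation. Rplp0, often used as a reference gene, read 13.38 at 0 h, 13.37 to 13.45 at 32°C (median 13.41) and 13.36 to 13.40 at 37°C (median 13.37). It was higher at 32°C in 6 of 6 pairs, but by 1.02-fold on average, with an interval of 0.963 to 1.09. Rplp1 read 13.31 to 13.44 at 32°C and 13.30 to 13.35 at 37°C (mean difference 0.045, SD 0.044, n = 6 pairs). For Rplp2 and for Rpl12, which sits at the base of the stalk, the cluster used lists no RefSeq transcript of the gene, so their values may come from another transcript. Rpl12 was uneven over time. At 32°C it read 8.90, 8.96, 9.17, 8.90, 8.96 and 8.55, and at 37°C 8.82, 8.69, 8.70, 8.75, 8.79 and 8.75. It was higher at 32°C up to 8 h, by 0.47 at 2 h, and lower by 0.20 at 18 h. Its early difference was 0.27 (SE 0.095, limma adjusted p = 0.623) and its late one 0.042 (SE 0.095, adjusted p = 0.866).

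Further large subunit members showed small or no separation. Rpl24, which forms a bridge to the small subunit, was higher in 6 of 6 pairs by 0.11 (SD 0.057, n = 6, limma adjusted p = 0.286). Rpl8 had a late difference of 0.10 (SE 0.062, adjusted p = 0.416). Rpl41, which encodes a very short peptide, was level, with 0.00077 (SD 0.051, n = 6) and an interval of 0.939- to 1.07-fold. Lower values at 32°C were few. Rpl21 was lower in 5 of 6 pairs by 0.036 (SD 0.035, n = 6, adjusted p = 0.762), and Rpl29 had a late difference of -0.022 (SE 0.058). Rpl30, which controls its own splicing in yeast, was lower in 5 pairs and higher by 0.30 at 2 h, and its late difference was -0.065 (SE 0.083). Rpl34 had an early difference of -0.068 (SE 0.070, adjusted p = 0.86).

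The l-ending paralogs did not move as a group. Rpl10l had the lowest mean difference of all members at -0.10 (SD 0.25, n = 6, limma adjusted p = 0.656), from -0.41 at 4 h to 0.32 at 18 h. Rpl39l, a relative of Rpl39 with most of its expression in testis, had 0.15 (SD 0.18, n = 6, adjusted p = 0.348), with 0.45 at 2 h. Rpl3l, the form of striated muscle, had 0.055 (SD 0.19, n = 6, adjusted p = 0.785) at a mean log2 intensity of 5.68. Rpl10l (7.02) and Rpl39l (6.56) were dim as well, below the median of all genes at 7.54. Rpl39l and Rpl3l each read the same value in 5 of the 13 arrays, and the 18 h difference of Rpl39l was 0. Rps4l, which the annotation lists as a transcribed pseudogene, was higher in 6 of 6 pairs by 0.14 (SD 0.094, n = 6, adjusted p = 0.235), with 0.30 at 18 h. Rps27l, a target of p53, and Rpl32l had -0.013 and 0.013.

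Near-identical copies limit which gene a cluster reads. The members had 215 clusters with 1 symbol, 39 members had more than 1 and Rps12 had the most, 14, and retrotransposed copies of ribosomal protein genes are common in the mouse genome. Of 156 clusters not used, 149 had the sign of the used one in the mean difference, while 5 of 6 other clusters of Rpl19, 1 of 12 of Rpl23a and 1 of 2 of Rps2 had the opposite sign. Among the 215 clusters, 19 read the same in all arrays as another of them, so the agreement in sign is not independent. Cross-hybridization between copies was not tested.

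Genes that act with the ribosomal proteins did not pass either. Fau, which encodes a ribosomal protein fused to a ubiquitin-like protein, had a mean difference of 0.040 (limma adjusted p = 0.728). Of 14 measured translation factors and other genes with TOP messages, 0 passed in any limma comparison. Their median difference was 0.018 over the 6 pairs (8 above 0), 0.0039 early (8) and 0.012 late (8). Of 18 genes of the mTOR pathway and TOP control 0 passed, with medians of -0.024 over the 6 pairs (5 above 0), 0.029 early (10) and -0.090 late (7). The median over the genes above the median signal was 0.029 early and -0.025 late. Larp1, which holds TOP messages in a stored state, had a late difference of -0.10 (SE 0.067, adjusted p = 0.468). Of 7 transcription factors of ribosomal protein genes 0 passed, with medians of -0.015 over the 6 pairs (3 above 0), 0.044 early (4) and -0.11 late (1).

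Fibroblast and macrophage markers differed between temperatures in opposite directions, and 0 passed the adjusted test. Of 10 fibroblast markers 9 were lower at 32°C over the 6 pairs (median -0.075) and 8 over the late pairs (median -0.12), with 0 passing. At an unadjusted p under 0.05 3 were lower and 1 higher over the 6 pairs, and 4 were negative in the divergence. Their summed intensity lay between 44290 and 49200 at 32°C and between 47530 and 48830 at 37°C. Of 5 macrophage markers 4 were higher at 32°C over the 6 pairs (median 0.13) and 4 over the late pairs (median 0.097), with 0 passing and, at an unadjusted p under 0.05, 1 higher over the 6 pairs and 2 in the divergence. They summed to 414 to 546 at 32°C and 388 to 425 at 37°C. The macrophage markers were dim, with mean log2 intensities of 4.77 to 7.65. Other dim lists differed too, with 3 of 4 epithelium markers (median 0.063) and 3 of 4 neural markers (0.020) higher at 32°C over the 6 pairs. So were 2 of 3 erythroid (0.0092), 2 of 4 skeletal muscle (0.0085) and 2 of 4 endothelium markers (-0.012). The part of any of these lists in the difference of the ribosomal proteins was not tested.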

How the data were processed

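The files deposited by the authors hold linear intensities of 28853 transcript clusters on 13 arrays. Their summarization and normalization are not stated in those sources that were used, and the values were log2 transformed without further scaling. Of the clusters, 23410 were annotated. Of these, 1621 carried several symbols and entered only the alternative with all clusters. In the main fits 19938 genes were tested through the cluster with the highest mean. Groups came from the temperature and time in the labels.

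Linear models were run over all genes in limma 3.58.1 under R 4.3.3 (lmFit, eBayes), with 2-sided p-values adjusted by the method of Benjamini and Hochberg. Time trends are slopes on the order of the 7 time points (0 to 6). The divergence used time point as a block and a line through 0 at 0 h, and temperature effects are mean differences of pairs, over all 6 or as separate early and late terms. For Kendall's tau an exact p was computed for every gene. Simulated data were used to test the scripts. The number of arrays limits the precision, and dishes were pooled, so p-values measure the spread between times. For limma this spread is moderated over all genes.

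Named members were those with the 3 highest and 3 lowest estimates in the trends, the divergence and the early and late effects, those of the stalk, Rpsa, Rps6, Rpl41 and the l-ending paralogs. Rpl24, Rpl27, Rpl36 and Rps4x and others named by a count or an unadjusted p were added after values were seen. Members and lists were chosen with earlier results of these data known. Alternatives were quantile normalization, scaling to array medians, relative ranks from 0 to 100, a variance trend with intensity, genes above the median signal, the mean of all clusters of a gene, all clusters, log2 hours (0.5 h added), a separate term for 32°C and leaving out each time point. Clusters with a RefSeq transcript, and the counts of pairs under these settings, were added after the data were seen. Promoter sequences are those of RefSeq (GRCm38.p6). Figures were drawn with matplotlib 3.10.9.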

Additional observations from a re-analysis of the deposited data

Results flagged for a closer look

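Rpl27 and Rps21 lay above the shared 0 h array in all 6 arrays at 32°C and below it in all 6 at 37°C. The mean differences at matched times were 0.068 for Rpl27 and 0.21 for Rps21 on the log2 scale (SD 0.023 and 0.070, n = 6 pairs each). The opposite positions around 0 h were not tested as such, they rest on 1 array at 0 h, and the lowest array at 32°C exceeded it by 0.0017 for Rpl27 and by 0.021 for Rps21. Groups of 4 to 10 replicate samples did not exist, so no sample was tested as an outlier.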

How the results depend on the processing

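Under the alternatives 0 members passed after adjustment in any limma comparison, apart from 1 cluster when all clusters were tested. The share of all genes that passed ran from 0%, as for the time trend at 37°C, to 8.69%. The latter was the late difference among the 9969 genes above the median signal, where the divergence gave 7.93%. The median slope turned to -5.7e-04 at 32°C with array medians and to 0.0014 at 37°C without the 0 h array, and the medians of the divergence and of the temperature differences stayed above 0 in each alternative run. Over all transcript clusters 1 of 450 with a symbol of the family passed in the divergence, against 359 of 28853 clusters (1.24%). It carries several symbols, one of them a small nucleolar RNA, with an adjusted p of 0.0238 in limma. With relative ranks 1 member at 32°C and 1 at 37°C had a Kendall p under 0.05, as 1620 (8.13%) and 825 (4.14%) of 19938 genes did, and without the 0 h array 0 did at 37°C, against 534 genes (2.68%). The divergence of Rpl30 turned to 0.0025 with quantile normalization and 0.025 rank points with relative ranks. With a separate term for 32°C the divergence became 0.034 for Rpl10l, 0.011 for Rpl21, -0.0055 for Rps21 and -7.7e-04 for Rpl39l, in the first 2 from negative and in the others from positive values.

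Leaving out each time point in turn, the members whose arrays did not overlap ranged from 4 to 9 (1.24% to 2.22% of all genes) and those higher in every remaining pair from 10 to 19 (6.22% to 7.95% of all genes). The slope of Rpl10l at 32°C ranged from -0.026 to 0.073 and that of Rpl39l at 37°C from -0.037 to 4.1e-05. The divergence ranged from -0.062 to 0.0015 for Rpl10l and from -0.017 to 0.0049 for Rpl30, and the late difference from -0.30 to 0.062 for Rpl10l and from -0.044 to 0.0038 for Rpl29. With a variance trend in limma 16 members in place of 7 had an unadjusted p under 0.05 at matched times and 14 in place of 4 in the divergence, where 13.9% and 19% of all genes did. The cause of these changes was not tested. With 1 array per time and temperature, no replicate error was measured. The temperature comparisons already pair the arrays by time, and no replicate block could be added. The 95% interval of the mean difference of a member reached, at the median, 1.07-fold to either side.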
